A study of Homo sapiens with 22 samples.

Results

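The 6 control libraries of 786-M1A cells fall into a pair and a foursome. All 6 came from cells with the same non-targeting CRISPRi guide (SC), and replicates 1 and 2 (SC 1-2) were set against replicates 3, 4, 5 and 6 (SC 3-6), out of 22 RNA-seq libraries in the series. 786-M1A is a metastatic derivative of 786-O, a clear cell renal carcinoma line that lacks functional VHL, and CRISPR interference silences a locus with a guide RNA and an inactive Cas9 fused to a repressor. The labels give one genotype, one growth medium and one RNA protocol for all 6 libraries, so no label separates the sets. They do not say whether replicates are separate cultures, whether the cells are 1 clone or how the CRISPRi construct is driven. The sets were chosen by measured values, namely the mean gene length per read and how many genes differ between pairs of libraries. Differences between SC 1-2 and SC 3-6 are therefore a description, and no test of them is given.

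Other libraries served as a reading of the same genes in samples that did not enter the split. These were 2 libraries of 786-M1A cells with the CRISPRi guide iMAE-126, 4 with iMAE-1.1 and 4 with iMAE-1.2. The 8 libraries of the last 2 guides are called iMAE-1. Unmodified 786-M1A cells (M1A below) gave 2 more. MAE stands for a metastasis-associated enhancer, and the labels do not name the element or gene of a guide. Total expected counts, in units of 1e+06, were 24.4 and 15.3 in SC 1-2 and 16.2, 10.5, 15.1 and 17.1 in SC 3-6. They were 19.9 and 36.2 in iMAE-126, 9.06 to 23.7 in iMAE-1, and 52.7 and 49.3 in M1A.

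Some background helps to read the gene groups. NF-kB is a transcription factor that cells hold inactive with inhibitor proteins until a stimulus releases it, after which it switches on cytokine and chemokine genes. In cells without VHL the hypoxia-inducible factors escape degradation and drive glucose uptake, angiogenic and pH-regulating genes even in normal oxygen. ATF4 is the effector of the integrated stress response and switches on amino acid synthesis genes.

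Reads in SC 1-2 came from longer genes than reads in SC 3-6. The mean length of a gene weighted by its reads was 3646 and 3716 bases in SC 1-2, against 3302, 3370, 3264 and 3395 bases in SC 3-6. It was 3528 and 3573 bases in iMAE-126, against 3299 to 3379 bases in iMAE-1, and 3929 and 3982 bases in M1A. The sets did not overlap, iMAE-126 lay between them, and iMAE-1 lay with SC 3-6. The sets were chosen in part by this value, so their separation in it follows from the choice. Genes under 1 kb took 8.996% and 8.46% of the counts in SC 1-2, against 10.8% to 11.98% in SC 3-6, and genes over 5 kb took 21.7% and 22.6% against 17.1% to 18.7%.

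A gene was counted as different where the set means of log2 CPM (counts per 1e+06 counts) differed by at least 1, a 2-fold difference, and no library of one set overlapped the other. Of 14646 genes measured, 578 were higher in SC 1-2 (3.95%) and 708 were lower (4.83%). The median difference over all genes was -0.01 on the log2 scale, the median size of a difference was 0.35, and the median within-set SD was 0.12. Without SC replicate 1, 785 genes were higher and 1064 lower. The balance of higher and lower depended on the scale, since 659 were higher and 180 lower on log2(TPM + 1), a scale per length on which the median of all genes was 0.19. Centring on genes of like length, which takes the median difference of genes in the same length bin from each gene, left 482 higher and 637 lower. Without a size limit, 4661 genes (31.8%) were higher in SC 1-2 with no overlap and 4557 (31.1%) were lower. Libraries from different sets had 1415 to 1966 genes at least 2-fold apart over the 8 such pairs, a kind of count that entered the choice of the sets. The pair within SC 1-2 had 629 such genes, and the 6 pairs within SC 3-6 had 277 to 412. Differences of at least 8-fold (log2 of 3) were seen in 19 genes that were higher and 16 that were lower in SC 1-2. At the 2-fold limit, ELFN2 (1.0001, 140 and 146 CPM in SC 1-2, and 64.2 to 79.4 CPM in SC 3-6) was just inside and TBC1D19 (0.9998) just outside.

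**Figure D1:**
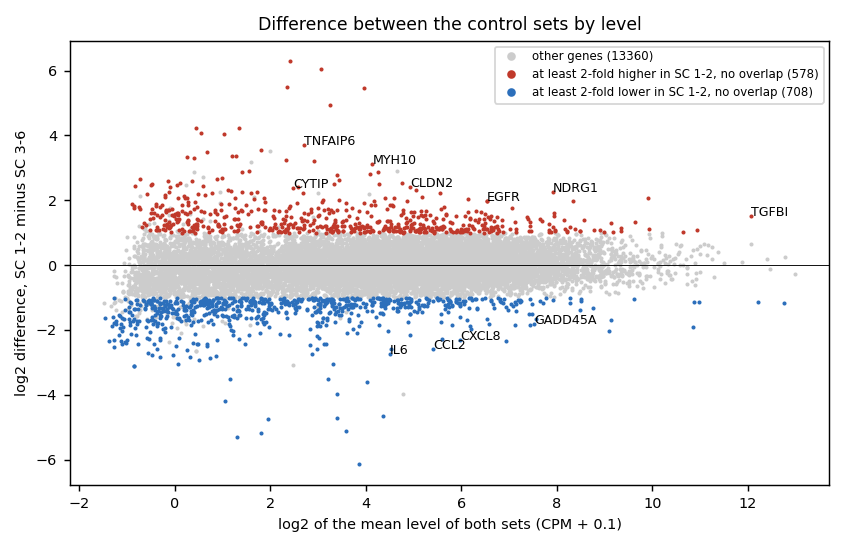
Difference between SC 1-2 and SC 3-6 (log2, y axis) against the mean level of both sets (log2 of CPM + 0.1, x axis), 1 point per measured gene. The 578 genes in red and the 708 in blue differ at least 2-fold without overlap, and they are found at low, middle and high levels.

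Many of the largest differences were in genes that share sequence with a copy or a neighbour. SRGAP2B had 15.0 and 5.90 CPM in SC 1-2 and 0 CPM in each SC 3-6 library. These were 449 counts over SC 1-2 and 0 over SC 3-6. FAM72D had 1.12 and 0 CPM in SC 1-2, against 29.5, 36.4, 30.3 and 17.1 CPM in SC 3-6. Reads of such genes are split between copies by the authors' estimate, and their values are uncertain. Summed over their families the sets were much closer: FAM72 genes totalled 81.0 CPM on average in SC 1-2 and 121 CPM in SC 3-6, and SRGAP2 genes 153 CPM in SC 1-2 and 91.0 CPM in SC 3-6. POC1B-GALNT4, a readthrough of neighbouring genes, had 0.4995 and 0 CPM in SC 1-2, against 6.31 to 9.05 CPM in SC 3-6. Its parts summed to 29.6 CPM in SC 1-2 and 27.9 CPM in SC 3-6. The same uncertainty holds for SRGAP2C, TMED7-TICAM2, C15orf38-AP3S2 and FAM45A among the higher genes, and for RGPD8, KIAA0408, GGTLC2, LOC727751, TNFAIP8L2-SCNM1, C18orf32 and LOC100506076 among the lower ones. Of the 1286 genes counted as different, 690 had whole counts in all 6 libraries, and of these 370 were higher and 320 lower in SC 1-2. Fractional counts, a sign of shared reads, were seen in 46.3% of the different genes and in 49.2% of all genes measured.

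NF-kB targets and chemokines stood out among the genes that were lower in SC 1-2. Of the 22 listed genes measured, 11 were at least 2-fold lower and 1 was higher, with a median of -1.003, where 4.83% of all genes were lower and the median was -0.01. The cytokine IL6 had 5.54 and 6.10 CPM in SC 1-2, against 36.4, 40.6, 40.6 and 40.7 CPM in SC 3-6, a difference of -2.74. CXCL8, a neutrophil attractant, had 22.7 and 19.1 CPM in SC 1-2, against 109, 96.0, 112 and 101 CPM in SC 3-6, a difference of -2.32. CCL2, a monocyte attractant, had 13.0 and 11.3 CPM in SC 1-2, against 74.95, 72.6, 74.5 and 68.0 CPM in SC 3-6, a difference of -2.57. In each of these genes the SC 1-2 libraries lay far below the lowest SC 3-6 library, and the libraries within a set were close. The neutrophil attractants CXCL2 (-2.75), CXCL5 (-2.27), CXCL1 (-1.86) and CXCL3 (-1.15) and the lymphocyte and dendritic cell attractant CCL20 (-2.50) were lower too, although CXCL1, CXCL2 and CXCL3 are close copies and all 4 CXCL genes had fractional counts. The other lower members were the growth factor CSF2 (-1.55), the adaptor TRAF1 (-1.28) and TNFAIP3 (-1.12), which shuts off NF-kB signalling. NFKBIA, the main inhibitor of NF-kB, had 46.2 and 45.5 CPM in SC 1-2, against 72.9 to 79.0 CPM in SC 3-6, a difference of -0.73, which is under the 2-fold limit. The complement gene C3 was the member that was higher (1.03). When centred on genes of like length, 10 members were lower and none higher, as CXCL3 (-0.87) and C3 (0.89) came under 2-fold.

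Starts of 4 of these genes are shown because the kB letters that name the group stand in them. Each sequence is a RefSeq promoter of build GRCh38.p14 on the strand of its gene, 250 bases before to 50 after the start. They are CXCL2 at chr4:74099146-74099445 on the minus strand, IL6 at chr7:22726950-22727249, CCL20 at chr2:227813592-227813891 and CXCL8 at chr4:73740319-73740618, the last 3 on the plus strand. Capitals mark matches to GGNNTTTCC on either strand.
CXCL2: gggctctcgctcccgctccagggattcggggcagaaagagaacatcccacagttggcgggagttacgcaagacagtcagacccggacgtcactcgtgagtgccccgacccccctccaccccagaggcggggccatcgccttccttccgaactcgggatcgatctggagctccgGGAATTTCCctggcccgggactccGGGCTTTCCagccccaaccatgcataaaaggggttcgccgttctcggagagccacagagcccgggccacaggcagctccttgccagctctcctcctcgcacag
IL6: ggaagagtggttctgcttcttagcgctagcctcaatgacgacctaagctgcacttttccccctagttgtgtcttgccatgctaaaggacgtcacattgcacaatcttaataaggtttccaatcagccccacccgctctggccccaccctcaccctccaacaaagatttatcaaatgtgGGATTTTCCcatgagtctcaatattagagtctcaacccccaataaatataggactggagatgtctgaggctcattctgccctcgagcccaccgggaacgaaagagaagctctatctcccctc
CCL20: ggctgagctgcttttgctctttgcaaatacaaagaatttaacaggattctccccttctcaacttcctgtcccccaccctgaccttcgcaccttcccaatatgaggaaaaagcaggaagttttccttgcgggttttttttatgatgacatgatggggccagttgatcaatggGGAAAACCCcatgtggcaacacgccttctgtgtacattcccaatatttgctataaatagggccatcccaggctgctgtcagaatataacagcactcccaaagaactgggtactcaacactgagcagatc
CXCL8: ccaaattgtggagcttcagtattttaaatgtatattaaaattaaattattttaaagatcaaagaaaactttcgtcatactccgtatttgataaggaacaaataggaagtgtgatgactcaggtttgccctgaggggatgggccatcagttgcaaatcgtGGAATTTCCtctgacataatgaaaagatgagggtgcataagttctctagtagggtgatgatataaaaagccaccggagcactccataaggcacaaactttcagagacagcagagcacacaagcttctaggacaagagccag
CXCL2 holds 2 matches and CCL20, IL6 and CXCL8 hold 1 each. Of the 11 lower members, 10 had a promoter in the table and 9 of these held a match, where 2078 of all 27305 genes in the table (7.61%) did. In both counts a gene holds a match where any of its promoters does. The AP-1 letters TGANTCA were in 1 of the 10, where 9.37% of all genes held them. A match is a description of letters and not of binding, and the list is made of known NF-kB targets.

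The same list was tested in iMAE-126 against iMAE-1, a comparison of 10 libraries that shares none with the SC sets. Calls needed an adjusted p under 0.05 in edgeR's quasi-likelihood test with Benjamini-Hochberg adjustment over 15099 genes. There, 3640 genes (24.1%) were called higher and 3571 (23.7%) lower in iMAE-126, and without iMAE-126 replicate 2 these were 2289 and 2349. Of the 22 NF-kB list members, 19 were called lower and 1 (C3) higher. IL6 had 2.64 and 3.19 CPM in iMAE-126, against 42.2 to 53.7 CPM in iMAE-1, with a log2 fold change of -3.95 (standard error 0.14, adjusted p = 2.16e-09 in edgeR). CXCL8 had 5.52 and 5.81 CPM in iMAE-126, against 89.2 to 149 CPM in iMAE-1 (-4.32, standard error 0.22, adjusted p = 9.71e-08 in edgeR). The SC 3-6 libraries thus lay near or within the iMAE-1 range for IL6 and CXCL8, and SC 1-2 lay between iMAE-126 and iMAE-1. M1A averaged 8.38 CPM of IL6, 24.3 CPM of CXCL8 and 6.85 CPM of CCL2. Guide and library set cannot be told apart in this comparison, since every iMAE-126 library lies apart from every iMAE-1 library in mean gene length.

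Immediate early and stress response genes followed. Of 26 early response factors measured, 6 were lower and 2 higher in SC 1-2, with a median of -0.35. At 2-fold, 4.83% of all genes were lower and 3.95% higher. Without overlap at any size 13 of the 26 were lower and 6 higher, where 31.1% of all genes were lower and 31.8% higher. In iMAE-126 15 were called lower and 2 higher, where 23.7% of all genes were called lower and 24.1% higher. ATF3, a stress-induced transcription factor, had 8.33 and 8.62 CPM in SC 1-2, against 29.3, 35.98, 37.0 and 39.2 CPM in SC 3-6 (-2.04). EGR1, a factor induced by growth signals, had 4.58 and 3.98 CPM in SC 1-2, against 8.80, 24.7, 22.5 and 23.7 CPM in SC 3-6 (-2.09), with replicate 3 well below the rest of SC 3-6. IER3 (-1.51), JUND (-1.49), the phosphatase DUSP1 (-1.29) and FOSB (-1.01) were lower as well. EGR2 (2.16) and DUSP4 (1.13, and 0.91 when centred) were higher. EGR2 was near the floor, with 0.999 and 1.66 CPM in SC 1-2 and 0.122 to 0.282 CPM in SC 3-6. In iMAE-126, ATF3 fell with a log2 fold change of -2.22 (standard error 0.23, adjusted p = 1.47e-05 in edgeR), and JUND did not pass (-0.64, adjusted p = 0.0525 in edgeR).

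The ATF4 response was lower in part. Of 22 genes measured, 4 were lower and 1 higher in SC 1-2, with a median of -0.40. Without overlap at any size 16 were lower and 5 higher, where 31.1% of all genes were lower and 31.8% higher. CHAC1, which breaks down glutathione, had 3.25 and 3.58 CPM in SC 1-2, against 14.4, 11.4, 14.4 and 11.3 CPM in SC 3-6 (-1.88). PSAT1, an enzyme of serine synthesis, had 107 and 109 CPM in SC 1-2, against 224 to 278 CPM in SC 3-6 (-1.199). The stress factor DDIT3 (-1.05) and CBS, an enzyme of cysteine synthesis (-1.02), were lower too. Both came under 2-fold when centred (DDIT3 -0.78, CBS -0.98), and the list then had 3 lower members and 1 higher. ALDH1L2, a mitochondrial folate enzyme, was higher (1.70). In iMAE-126, 10 of the 22 were called lower and 2 higher, where 23.7% of all genes were called lower and 24.1% higher. ATF4 itself had 381 and 379 CPM in SC 1-2, against 679 to 729 CPM in SC 3-6, a difference of -0.89.

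**Figure D2:**
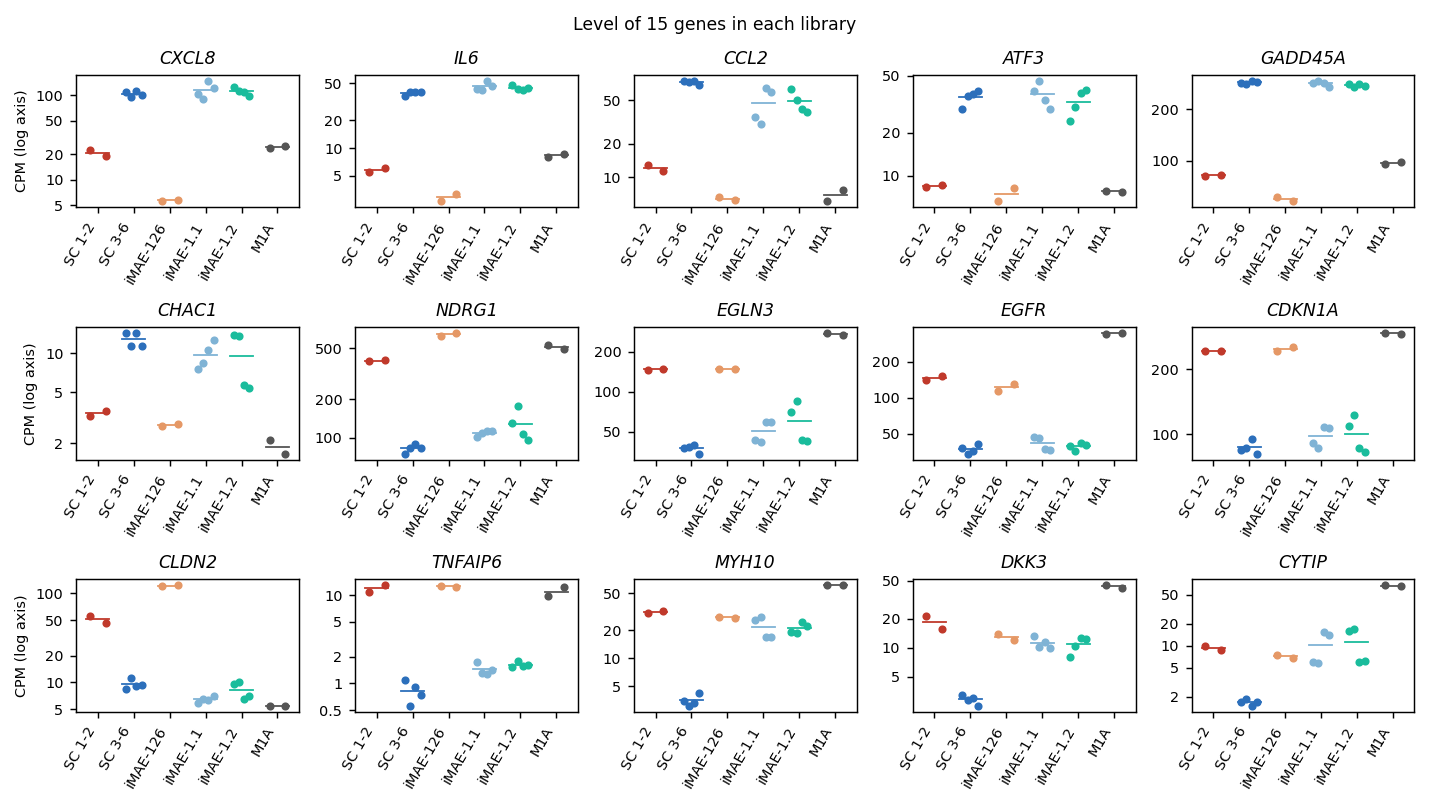
Level in CPM (log axis) of 15 genes in each library of SC 1-2, SC 3-6, iMAE-126, iMAE-1.1, iMAE-1.2 and M1A, with a line at each group's mean. In CXCL8, IL6, CCL2, ATF3, GADD45A and CHAC1 the SC 1-2 libraries lie below SC 3-6, in the other 9 genes they lie above, and MYH10, DKK3 and CYTIP are low in SC 3-6 but not in the iMAE-1 groups.

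Part of the hypoxia genes were higher in SC 1-2, although all libraries come from cells without VHL. Of 25 measured, 5 were at least 2-fold higher and none lower, with a median of 0.48, where 3.95% of all genes were higher. When centred on genes of like length, 4 were higher and 1 lower. Without overlap at any size 17 were higher and 5 lower, where 31.8% of all genes were higher and 31.1% lower. NDRG1, a hypoxia-induced growth regulator, had 394 and 405 CPM in SC 1-2, against 75.3, 83.4, 89.3 and 83.5 CPM in SC 3-6 (2.27). EGLN3, an oxygen-sensing prolyl hydroxylase, had 147 CPM in both SC 1-2 libraries, against 37.6, 38.1, 39.8 and 34.1 CPM in SC 3-6 (1.97). The sets were well apart for both genes, and each set was tight. The lipoprotein lipase inhibitor ANGPTL4 (1.89), the EGFR ligand TGFA (1.60) and the collagen crosslinking enzyme LOX (1.12, and 0.99 when centred) completed the group. VEGFA, the main angiogenic factor, had 280 and 293 CPM in SC 1-2, against 185 to 229 CPM in SC 3-6, a difference of 0.48. In iMAE-126 10 of 25 were called higher and 5 lower, where 24.1% of all genes were called higher and 23.7% lower. The list median there was 0.08. NDRG1 was among the genes called higher in iMAE-126 (2.44, standard error 0.15, adjusted p = 7.11e-07 in edgeR). VEGFA was not called there (0.08, adjusted p = 0.748 in edgeR). The HIF letters ACGTG were in 2 of the 4 higher hypoxia genes with a promoter in the table, where 24.9% of all genes held them.

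Glycolysis and cell cycle genes mostly differed by less than 2-fold, more often higher in SC 1-2 than lower. Of 22 glycolysis and glucose uptake genes none reached 2-fold, 16 were higher in SC 1-2 without overlap and 2 lower, and the median was 0.48. Of all genes, 31.8% were higher and 31.1% lower without overlap. LDHA, which makes lactate, had 1859 and 1886 CPM in SC 1-2, against 1132 to 1301 CPM in SC 3-6. Of 31 replication and mitosis genes, 21 were higher without overlap and 4 lower, with a median of 0.38, and the proliferation marker MKI67 was the one that passed 2-fold (736 and 817 CPM in SC 1-2, against 350 to 425 CPM in SC 3-6), with a difference of 1.02 that became 0.64 when centred. In iMAE-126, 12 glycolysis genes were called higher and 2 lower, while 8 replication and mitosis genes were called higher and 12 lower. The shares over all genes there were 24.1% called higher and 23.7% lower.

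Growth factor receptors and ligands were among the higher genes, with 5 of 27 measured at least 2-fold higher in SC 1-2 and none lower. Without overlap at any size 15 were higher and 5 lower. The shares over all genes were 3.95% higher and 4.83% lower at 2-fold, and 31.8% and 31.1% at any size. EGFR had 141 and 153 CPM in SC 1-2, against 38.4, 34.1, 36.1 and 41.0 CPM in SC 3-6 (1.97). In iMAE-126 it had 114 and 132 CPM, against 36.1 to 47.4 CPM in iMAE-1 (1.60, standard error 0.09, adjusted p = 1.02e-07 in edgeR), and M1A averaged 345 CPM. SC 3-6 thus overlapped the iMAE-1 range and lay below every SC 1-2, iMAE-126 and M1A library. Counts of EGFR were fractional in all 6 SC libraries. IGF1R, the receptor of insulin-like growth factors (1.03, and 0.65 when centred), AXL, a receptor kinase (1.17), and PGF, a ligand of a VEGF receptor (2.18), were higher as well. GFRA2, a coreceptor for neurturin, had 97 counts over SC 1-2 and 1 count over SC 3-6, which is 149 times as much per total count (exact counting interval 26.2 to 5957). Among growth factor carriers and secreted modulators, 5 of 13 were higher and 1 lower. IGFBP3, the most abundant, had 2638 and 2728 CPM in SC 1-2, against 1184 to 1275 CPM in SC 3-6 (1.097). The BMP antagonist NOG was the lower one (-1.98), from 0.250 and 0.199 CPM in SC 1-2 and 0.914 to 1.53 CPM in SC 3-6. In iMAE-126, 10 of the 27 receptor and ligand genes were called higher and 6 lower (median 0.04). Among the 13 carriers and modulators, 4 were called higher and 3 lower. The shares over all genes were 24.1% called higher and 23.7% lower.

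Most matrix and adhesion genes differed by less than 2-fold. At 2-fold, 3.95% of all genes were higher and 4.83% lower. Of 21 integrin and laminin genes, 4 were higher and 1 lower, with a median of 0.51 that became 0.27 when centred on genes of like length. Without overlap at any size 12 were higher and 4 lower, where 31.8% of all genes were higher and 31.1% lower. ITGA1 (1.68), a collagen-binding subunit, ITGB3 (1.15), ITGAV (1.04) and ITGB8 (1.02) were higher, and ITGA10 was lower (-1.24). ITGAV (0.73) and ITGB8 (0.64) came under 2-fold when centred, and the list then had 2 higher and 2 lower members. TGFBI, a secreted matrix protein induced by TGF-beta, had 6380 and 6277 CPM in SC 1-2, against 2241, 2247, 2256 and 2176 CPM in SC 3-6 (1.501). THBS1 (1.13), TGFBR2 (1.05) and ACTA2 (1.04) were the other higher members of the 21 TGF-beta and mesenchymal genes, and none was lower. THBS1 (0.91) and TGFBR2 (0.91) came under 2-fold when centred. COL8A1 (1.502) and COL6A3 (1.38) were higher and COL16A1 lower (-1.40) among 14 collagens. The gelatinase MMP2 (1.12) was higher, and MMP9 (-1.72) and ADAMTS1 (-1.07) were lower, among 22 protease genes with a median of 0.08. MMP9 was near the floor, with 0.208 and 0.199 CPM in SC 1-2 and 0.734 to 1.13 CPM in SC 3-6. TGFBI was called in iMAE-126 (1.48, standard error 0.12, adjusted p = 1.53e-06 in edgeR), and THBS1 was not (-0.12, adjusted p = 0.546 in edgeR).

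Targets of p53 and of YAP were more often higher than lower in SC 1-2, and each list had 1 member at least 2-fold lower. Without overlap at any size, 13 of 22 p53 targets were higher and 3 lower (median 0.26). Of 22 YAP targets, 12 were higher and 5 lower (median 0.12, and 0.01 when centred). Of all genes, 31.8% were higher and 31.1% lower at any size, and 3.95% and 4.83% at 2-fold. CDKN1A, the p53-induced cell cycle inhibitor, had 243 CPM in both SC 1-2 libraries, against 85.2, 86.4, 95.2 and 81.6 CPM in SC 3-6 (1.48). GADD45A, a stress gene that p53 also induces, had 81.5 and 82.6 CPM in SC 1-2, against 286, 280, 294 and 288 CPM in SC 3-6 (-1.81). The pooled within-set SD of GADD45A was 0.02 on the log2 scale. RRM2B (1.07) and ZMAT3 (1.29) were higher, so 3 of 22 p53 targets were higher and 1 lower. RRM2B (0.94) and ZMAT3 (0.90) came under 2-fold when centred, which left CDKN1A higher and GADD45A lower. ANKRD1, a YAP target, had 24.9 and 23.4 CPM in SC 1-2, against 85.5 to 89.5 CPM in SC 3-6 (-1.85), while PTPN14 (1.41), MYOF (1.40), AXL (1.17) and IGFBP3 (1.097) of the same list of 22 were higher. In iMAE-126 the same directions were called for CDKN1A (1.32, adjusted p = 5.30e-06 in edgeR), GADD45A (-2.23, adjusted p = 1.40e-09) and ANKRD1 (-2.72, adjusted p = 0.000931). As a list, the 22 YAP targets went the other way there, with 5 called higher and 10 lower (median -0.26). The 22 p53 targets had 11 called higher and 3 lower (median 0.31). The shares over all genes were 24.1% called higher and 23.7% lower.

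Renal lineage genes were more often higher than lower in SC 1-2, and the list of junction genes had no clear direction. Of all genes, 31.8% were higher and 31.1% lower without overlap at any size. Of 18 renal genes measured, 10 were higher in SC 1-2 without overlap at any size and 4 lower, with a median of 0.23. In iMAE-126, 13 of 21 tested were called higher and 2 lower, where 24.1% of all genes were called higher and 23.7% lower. The renal adhesion genes CDH16 (2.07) and CDH6 (1.52) were at least 2-fold higher, and none of the list was 2-fold lower. PAX8, the renal lineage factor, had 241 and 236 CPM in SC 1-2, against 379 to 431 CPM in SC 3-6 (-0.76) and was present in every library. CLDN2, which forms a cation pore in proximal tubule, had 55.7 and 46.7 CPM in SC 1-2, against 8.38, 11.1, 9.08 and 9.41 CPM in SC 3-6 (2.42). It had 120 and 124 CPM in iMAE-126, against 5.89 to 10.1 CPM in iMAE-1, and averaged 5.47 CPM in M1A. The M1A libraries thus lay below every SC 3-6 library for CLDN2, farthest from iMAE-126. Of 17 epithelial junction genes 6 were higher without overlap and 7 lower, close to the shares of all genes, with a median of -0.05. CLDN1, a sealing claudin, had 48.0 and 41.3 CPM in SC 1-2, against 133 to 158 CPM in SC 3-6 (-1.66), and the epithelial adhesion gene EPCAM was lower too (-1.74).

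Smaller groups were mixed. At 2-fold, 3.95% of all genes were higher and 4.83% lower. The clock output gene DBP had 1.62 and 1.86 CPM in SC 1-2, against 0.0930 to 0.653 CPM in SC 3-6 (2.13). Of 18 clock genes, TEF (1.18) and CRY2 (1.05, and 0.95 when centred) were also higher, and HLF was lower (-2.24). HLF was near the floor, with 0.291 and 0.0663 CPM in SC 1-2 and 0.673 to 1.76 CPM in SC 3-6. Of 8 measured replication-dependent histone genes 3 were higher and 1 was lower, in a list where poly(A) selection leaves few reads. SNHG1 (-1.197), GAS5 (-1.096) and PVT1 (-1.08) were lower among 13 long noncoding RNAs. All 3 came under 2-fold when centred, to -0.92, -0.76 and -0.94, which left none of the list. Spliceosome and RNA-binding genes differed by less than 2-fold, with 21 of 27 lower without overlap, 2 higher and a median of -0.34, where 31.1% of all genes were lower without overlap. In iMAE-126, 19 of these 27 were called lower and 1 higher, where 23.7% of all genes were called lower and 24.1% higher. Sterol synthesis genes had 16 of 23 lower without overlap, 3 higher and a median of -0.26, with INSIG1 (-1.004) the one at 2-fold, and 4 were called lower and 5 higher in iMAE-126.

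Single genes outside these groups also had large differences. TNFAIP6, a hyaluronan-binding secreted protein, had 10.9 and 13.0 CPM in SC 1-2, against 1.1005, 0.558, 0.914 and 0.732 CPM in SC 3-6 (3.70). VAV3, an activator of small GTPases, had 6.58 and 6.17 CPM in SC 1-2, against 0.279 to 0.732 CPM in SC 3-6 (3.55). Both were called in iMAE-126 (TNFAIP6 3.03, adjusted p = 2.23e-08 in edgeR; VAV3 5.88, adjusted p = 9.10e-08). M1A averaged 10.96 CPM of TNFAIP6 but 0.487 CPM of VAV3. HABP2, a serine protease (3.24), the nerve enzyme anchor PRIMA1 (2.89) and the axon guidance gene SEMA5B (2.88) were higher, and the hair keratin-associated KRTAP2-3 was lower (-3.04). TNF, named after its values were seen, had 2.71 and 1.59 CPM in SC 1-2, against 9.11, 12.8, 14.3 and 17.1 CPM in SC 3-6 (-2.58).

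**Figure D3:**
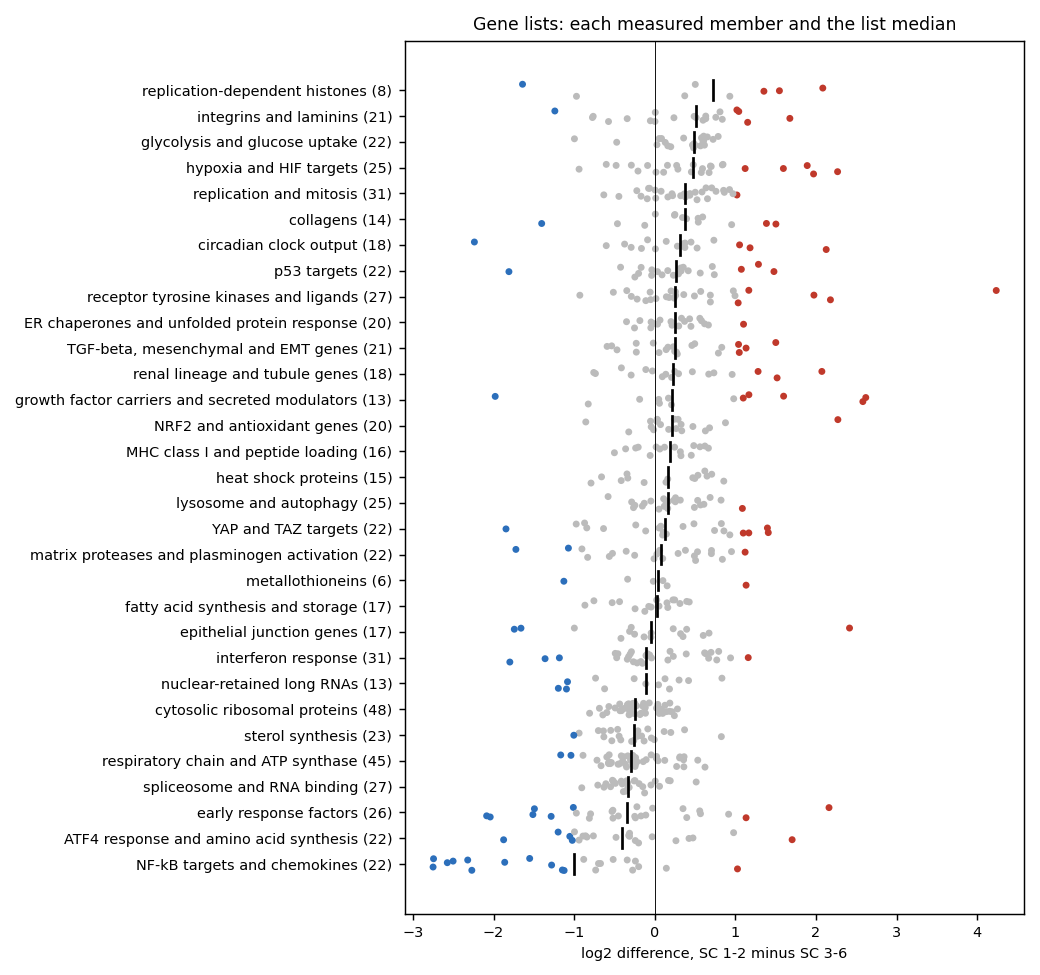
Log2 difference, SC 1-2 minus SC 3-6, of each measured member (points) of 31 gene lists, with the list median as a black bar and the number measured in brackets. Red and blue points are at least 2-fold different without overlap, and the NF-kB list lies lowest with a median of -1.003.

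Interferon genes had no common direction between the SC sets and were mostly higher in iMAE-126. Of 31 measured, 1 was higher (IFIT2, 1.16) and 3 lower (IFI27, XAF1 and ISG20) in SC 1-2, with a median of -0.10. At any size, 11 were higher and 9 lower without overlap, near the shares of all genes (31.8% and 31.1%). Without SC replicate 2 the median was 0.08. ISG20, at 0.27 to 1.58 CPM over the 6 libraries, had a difference of -1.18 that became -0.50 without SC replicate 2 and -0.91 when centred. In iMAE-126, 27 of the 31 were called higher and none lower, where 24.1% of all genes were called higher and 23.7% lower. IFI27 had 3.79 and 3.12 CPM in SC 1-2, against 10.5 to 13.7 CPM in SC 3-6 (-1.80), whereas it had 8.93 and 14.0 CPM in iMAE-126, against 2.20 to 5.87 CPM in iMAE-1 (1.62, standard error 0.33, adjusted p = 0.00193 in edgeR).

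Genes with short transcripts were mostly lower in SC 1-2. The sets were chosen in part by mean gene length per read, so a trend with length follows from the choice and is no separate result. Over 20 bins of equal size, the median difference was -0.33 in the shortest bin (median length 699 bases) and 0.38 in the longest (9461 bases). The shortest bin had 12 genes higher and 95 lower, and the longest 85 higher and 15 lower. Cytosolic ribosomal protein genes, with a median length of 737 bases, had a median of -0.25, which was 0.02 when centred on genes of like length. Respiratory chain genes had a median of -0.29, which was 0.03 when centred. The NF-kB list kept a median of -0.86 when centred, and hypoxia genes kept 0.47. The part of read length composition in the other gene differences was not tested.

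**Figure D4:**
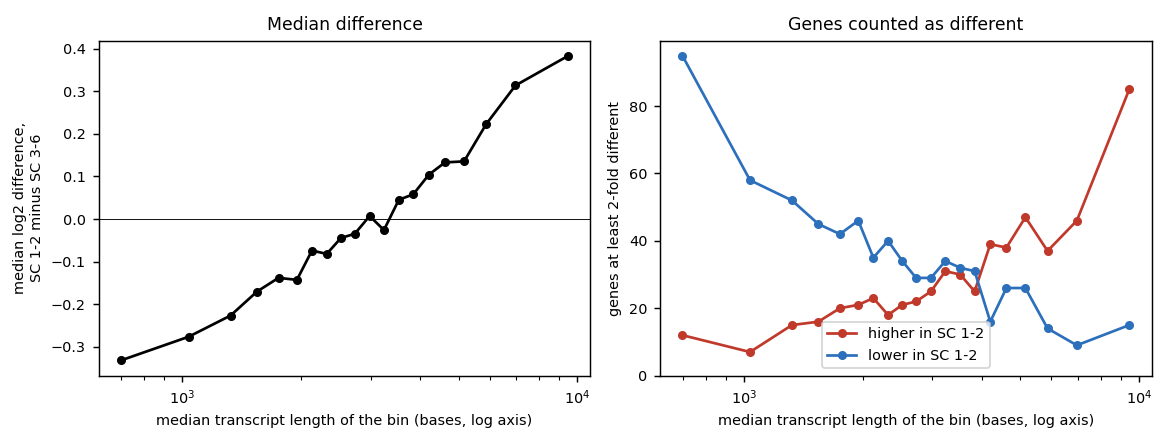
Left, median log2 difference (SC 1-2 minus SC 3-6) of genes in 20 bins of transcript length (bases, log axis). The sets were chosen in part by mean gene length per read. Right, genes at least 2-fold higher (red) and lower (blue) in each bin; the shortest bin has 12 and 95 and the longest 85 and 15.

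Very short and mitochondrial-like genes moved in the same direction. MIR6723, a locus of 89 bases, had 787 and 741 CPM in SC 1-2, against 2428, 3350, 2480 and 3393 CPM in SC 3-6. The 10 MTRNR2L genes, nuclear copies of mitochondrial ribosomal RNA, summed to 9244 and 9078 counts per 1e+06 in SC 1-2, against 16936, 25848, 18031 and 24220 in SC 3-6. Replicates 4 and 6 were above replicates 3 and 5 for both. In iMAE-126 the sum was 17786 and 11083, against 11047 to 26647 in iMAE-1, so those groups overlapped, and it was 4196 and 3884 in M1A.

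Most defining markers of other cell types were at or near 0. Leukocyte markers summed to 55.8 and 65.0 counts per 1e+06 in SC 1-2, against 34.3 to 35.5 in SC 3-6, with 3 of 16 measured and CD68, a lysosomal protein, the largest (52.3 CPM on average in SC 1-2 and 23.7 CPM in SC 3-6). CD3E, CD2, MS4A1 and TYROBP were at 0 counts in both sets. Endothelial markers summed to 3.06 and 3.42 in SC 1-2, against 3.96 to 6.63 in SC 3-6, with CDH5 at 0 counts in both. Fibroblast and pericyte markers summed to 195 and 213 in SC 1-2, against 158 to 185 in SC 3-6, mostly PDGFRB, with PDGFRA and DCN at 0 counts in both. The part of these genes in the other differences was not tested. In bulk RNA, fewer cells of a type and less RNA per cell cannot be told apart.

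Over all genes counted as different, the direction in iMAE-126 against iMAE-1 was mostly the same. Of the 578 genes higher in SC 1-2, 572 were tested, 464 were called higher in iMAE-126 and 3 lower, with a median log2 fold change of 1.13. Of the 708 lower genes, 696 were tested, 402 were called lower and 5 higher, with a median of -0.87. Against backgrounds of 24.1% and 23.7% of all genes, 81.1% and 57.8% were called in the direction of the SC difference. These backgrounds were not matched for gene length or level. Mean gene length per read was longer in iMAE-126 than in iMAE-1, as in SC 1-2 against SC 3-6. The part of gene length in the shared direction was not tested. The 464 made up 12.7% of the genes called higher in iMAE-126 and the 402 made up 11.3% of those called lower. On log2(TPM + 1) with limma, 5686 genes were called higher and 1830 lower in iMAE-126. M1A was nearer to SC 1-2 than to SC 3-6 for 485 of the 578 higher genes (83.9%) and 645 of the 708 lower genes (91.1%), where it was nearer for 74.6% of all genes measured.

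**Figure D5:**
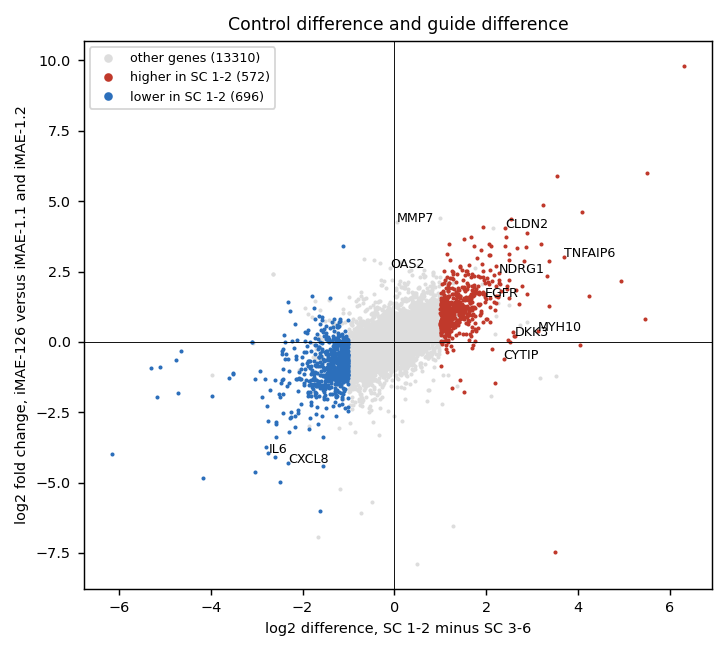
Log2 difference SC 1-2 minus SC 3-6 (x axis) against the edgeR log2 fold change of iMAE-126 versus iMAE-1.1 and iMAE-1.2 (y axis), 1 point per gene. Of the 572 red genes 464 were called higher and of the 696 blue genes 402 were called lower in iMAE-126, while MYH10, DKK3 and CYTIP lie near or below 0 on the y axis.

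A few genes set SC 3-6 apart from every other group. MYH10, a non-muscle myosin heavy chain, had 31.0 and 32.1 CPM in SC 1-2, against 3.48, 3.07, 3.33 and 4.22 CPM in SC 3-6 (3.12). It had 27.9 and 27.2 CPM in iMAE-126, against 16.8 to 27.7 CPM in iMAE-1 (0.37, standard error 0.18, adjusted p = 0.108 in edgeR). DKK3, a secreted protein of the Dickkopf family, had 21.4 and 15.7 CPM in SC 1-2, against 2.48 to 3.18 CPM in SC 3-6 (2.62), and its iMAE-126 mean was 12.9 CPM against 11.03 CPM in iMAE-1 (0.22, adjusted p = 0.265 in edgeR). CYTIP, a cytohesin-binding protein, had 10.0 and 8.62 CPM in SC 1-2, against 1.71, 1.86, 1.502 and 1.69 CPM in SC 3-6 (2.38). For these 3 genes no iMAE or M1A library was as low as the SC 3-6 libraries. CYTIP also split the iMAE-1 libraries: replicates 1 and 2 of iMAE-1.1 had 6.08 and 5.78 CPM and replicates 3 and 4 had 15.2 and 14.2 CPM, while those of iMAE-1.2 had 16.1 and 16.9 CPM and 6.03 and 6.202 CPM. CXCR4, the chemokine receptor, had 1.54 and 1.06 CPM in SC 1-2 and 0.611, 0.837, 0.588 and 1.07 CPM in SC 3-6, so the sets overlapped. For 2 more genes SC 3-6 lay within or near the iMAE-1 range, and iMAE-126 was not called apart from iMAE-1. IGFBP1 (1.17) had 60.2 and 62.7 CPM in SC 1-2, against 25.4 to 28.9 CPM in SC 3-6, and 32.4 and 29.6 CPM in iMAE-126, against 25.3 to 34.6 CPM in iMAE-1 (-0.01, standard error 0.10, adjusted p = 0.948 in edgeR). LTBP1 (1.60) had 10.3 and 9.22 CPM in SC 1-2, against 2.48 to 3.59 CPM in SC 3-6, and 6.10 and 7.80 CPM in iMAE-126, against 1.0999 to 5.55 CPM in iMAE-1 (1.203, standard error 0.57, adjusted p = 0.108 in edgeR). Unlike for IGFBP1, both iMAE-126 libraries lay above every iMAE-1 library for LTBP1. The iMAE-1 libraries split for LTBP1 as for CYTIP, at 1.0999 to 1.35 CPM and at 3.87 to 5.55 CPM.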

How the data were processed

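RNA was taken from 80% confluent cells grown in RPMI with 10% serum, and stranded poly(A) libraries were amplified for 15 cycles, as the labels' protocols state. Bowtie2, RSEM and hg19 are named in the submitters' processing notes, without versions or a strand setting. Per the file headers, the deposited expected count is RSEM's estimate of a gene's reads and can be a fraction. The TPM (transcripts per 1e+06) values were computed by the authors with RSEM, per the file headers. Each file lists 25343 genes. The effective length that the authors deposited equals the length for every gene in the 18 libraries used. The remaining 4 libraries, of other lines, were not analysed here.

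Expected counts were rounded. For the SC sets, log2 CPM (TMM factors over the 6 libraries, prior count 2, filterByExpr minimum count 10) gave the difference of set means, SC 1-2 minus SC 3-6, with no test. Levels in the text are CPM, counts per 1e+06 with TMM factors over 18 libraries. iMAE-126 was tested against the mean of both iMAE-1 guides with edgeR 4.0.16 in R 4.3.3, with robust quasi-likelihood fits, a call at adjusted p under 0.05, and standard errors as the fold change over the root of F. Named genes were the 12 highest and 12 lowest differences with at least 5 CPM in the higher set, up to 4 members of each list with at least 3 different members, CXCR4 and CYTIP, and other list members where a group is described. A few genes that this rule names are not reported here. Families of copies were chosen after seeing values. The sets, gene lists and tests were chosen with earlier results of these data known. With no word on separate cultures, p-values measure a spread that may be technical. Counting intervals are exact at 95 percent and cover counting error only. Distance to M1A used log2(CPM + 0.1). A count was taken as whole within 1e-06. Alternatives were DESeq2 1.42.0, limma 3.58.1 on log2(TPM + 1), RLE factors, other filters, a 1.5-fold threshold, length centring, a replicate block and leaving out libraries. The scripts were tested on simulated data. Tables used Python 3.11.15, pandas 2.3.3, numpy 2.4.6 and matplotlib 3.10.9.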

Additional observations from a re-analysis of the deposited data

Results flagged for a closer look

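Of 90 named genes, 7 had a library in SC 3-6 that was flagged as apart from the others of its set. Chance gives about 1 in 20, and an excess over that was not tested. A flag can rest on a small gap where the others lie close together, as for IL6 below. In SRGAP2C replicate 5 had 1.31 CPM and the others 0 CPM, and in TMED7-TICAM2 replicate 5 had 0.718 CPM and the others 0 CPM. Both genes share reads with copies or neighbours. In GFRA2 replicate 4 had 0.0930 CPM, a single count, and the others 0 CPM, and in IGFBP4, a carrier of insulin-like growth factors, replicate 4 had 0.465 CPM and the others 0.169 to 0.196 CPM. In EGR1 replicate 3 had 8.80 CPM and the others 22.5 to 24.7 CPM, in IL6 replicate 3 had 36.4 CPM and the others 40.6 to 40.7 CPM, and in KRTAP2-3 replicate 6 had 13.3 CPM and the others 18.9 to 19.2 CPM. For IL6, EGR1 and KRTAP2-3, both SC 1-2 libraries lay below every SC 3-6 library, these ones included.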

How the results depend on the processing

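Counts of genes at least 2-fold different were 1776 higher and 1895 lower in SC 1-2 at a 1.5-fold threshold, 4661 and 4557 at any size, 370 and 320 among genes with whole counts, and 180 lower on log2(TPM + 1). The whole-count, any-size and 18-library alternatives were chosen after seeing the data. Leaving out each SC library in turn gave 561 to 785 higher and 689 to 1064 lower, with 1064 without SC replicate 1. Calls in iMAE-126 were 5686 higher and 1830 lower with limma on log2(TPM + 1). Leaving out each library gave 2289 to 3652 higher and 2349 to 3581 lower, with 2289 and 2349 without iMAE-126 replicate 2, where the variance of 1 library is taken from the other groups. Members of the SC difference called in the same direction were 393 to 467 of the higher and 277 to 413 of the lower genes under the same omissions. The cause of these shifts was not tested. With a replicate block, 2635 genes were called higher and 2647 lower, and 418 and 332 members. The iMAE replicate numbers do not pair the libraries, since same-numbered libraries had correlations of -0.35 to -0.005, and the SC sets share no number. Replicates 1 and 2 of iMAE-1.1 correlated with replicates 3 and 4 of iMAE-1.2 (0.15 to 0.37), and replicates 3 and 4 of iMAE-1.1 with replicates 1 and 2 of iMAE-1.2 (0.16 to 0.39). The labels give no such block, the edgeR fits hold none, and its part in the p-values was not tested. Of the 90 named genes, none that was counted as different reversed under RLE factors, log2(TPM + 1), length centring or leaving out a library, though 75 moved by more than the within-set SD on log2(TPM + 1) and 32 under centring. List medians changed sign on centring for the ribosomal and respiratory chain lists, and on leaving out a library for the interferon, fatty acid and metallothionein lists. On log2(TPM + 1) all genes shifted by about 0.2, so a list's sign on that scale is not given. Low counts limit genes with under 1 CPM, where a few reads set the difference.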
